A study of Mus musculus with 4 samples.

Results

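mt-Cytb and mt-Co1 are 2 of the 15 mRNA and rRNA genes of the mouse mitochondrial genome, and polyadenylated 3′ ends were mapped along both. mt-Cytb encodes cytochrome b of respiratory complex III, and mt-Co1 encodes the catalytic subunit 1 of cytochrome c oxidase, complex IV. They were chosen by position on the plus strand, as bases 14145 to 15300 for mt-Cytb and the first 1080 bases of mt-Co1. Reads of mt-Co1 went on a little past this limit, to 6455, and the rest of the gene was empty. The ranges held 792 of the 236029 3′ end positions of one library and 665 of the 180853 of the other, or 881 different positions in all.

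Mitochondrial genes are transcribed as long RNAs, from which tRNAs are excised so that the mRNAs between them are released. A mitochondrial poly(A) polymerase then adds a short tail, which in several mRNAs, mt-Cytb among them, completes a stop codon that the genome leaves unfinished. Tails have also been described on shortened mitochondrial RNAs, away from the mature ends, and the cleavage machinery to which CstF64 belongs acts in the nucleus.

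The 3′ ends come from 3'READS, in which fragments that carry poly(A) are captured on beads and sequenced to find where the tail begins. RNA pooled from 11 mouse cell lines, bought as a mix, was captured either with CU5T45, an oligo of 5 U and 45 T, or with oligo(dT)10-25, whose stretches of T are shorter and mixed in length, and each gave 1 library. CstF64, the subunit of the cleavage stimulation factor that binds RNA, was crosslinked to RNA in proliferating C2C12 myoblasts and sequenced as CLIP-seq in 2 replicates without a control library. All cells are established lines given without any genotype or treatment. In a mix, fewer cells of a line and less RNA per cell cannot be told apart, and the lines were not checked against markers here, since nuclear genes were not named.

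The CU5T45 library held 6738355 reads, of which 2.74% were mitochondrial, and the oligo(dT)10-25 library 3482826 reads, of which 5.57% were. The CLIP files held 1101047 and 1352122 distinct alignments. With 1 library for each oligo there is no replicate error and no test. A ratio below is the share of all reads in CU5T45 divided by that in oligo(dT)10-25, and its 95% interval covers counting error only. PCR reads without molecular identifiers are not independent molecules, and such a ratio compares these libraries, not the oligos in general. Positions are given counting from 1 on the plus strand of chromosome M.

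The sequences below are those on which the results turn, each with 30 bases of mitochondrial sequence from GENCODE vM21 transcripts (GRCm38). The capitals mark the last base of mt-Cytb, the templated A run that ends at its most used internal position, the stretch of mt-Cytb with most CU5T45 reads relative to oligo(dT)10-25, the most used and next most used position of mt-Co1, and the stretch of mt-Co1 seen with CU5T45 alone.
mt-Cytb end (chrM:15269-15298): aatactaaaattatatccaTgtcttgatag
mt-Cytb internal peak (chrM:14777-14806): aaactcagatgcagatAAAAttccatttca
mt-Cytb high stretch (chrM:14408-14437): aatatttTTTATTTGCTTATTCcttcatgt
mt-Co1 internal peak (chrM:6219-6248): gatgtagacacacgagcttActttacatca
mt-Co1 next position (chrM:6039-6068): tttgggcacccagaagtttAtattcttatc
mt-Co1 CU5T45-only stretch (chrM:6274-6303): ccggtgtcaaAGTATTTAGCtgacttgcaa

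The mature end of mt-Cytb was sharp and was captured less with CU5T45 than with oligo(dT)10-25. The gene (ENSMUSG00000064370.1, starting at 14145) has 1144 nt, which is 381 codons and 1 further base, the capital T of the end sequence. The tRNA gene mt-Tt follows without a gap and starts at 15289. Within 10 nt of the last base lay 27346 CU5T45 reads and 54305 oligo(dT)10-25 reads, or 4058 and 15592 counts per 1000000 reads (CPM). The ratio was 0.260 (95% interval 0.257 to 0.264), a share 3.84-fold lower with CU5T45.

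The last base itself held 27044 and 53706 of these reads, 98.9% in both libraries. The base before it, 15287, held 152 and 329 reads. All bases of the window before the last base together had a ratio of 0.257 (0.223 to 0.296), close to that of the end itself, and 8 reads in each library lay after it. The share was thus lower with CU5T45 at the last base and on the bases before it alike. Set against mitochondrial reads alone, which leaves out the different mitochondrial share of the libraries, the ratio of the end was 0.528. That total includes the end itself, so its lower share with CU5T45 raises every other ratio on this scale.

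Internal mt-Cytb positions took almost the same share of reads in the libraries. They held 6334 CU5T45 and 3478 oligo(dT)10-25 reads, 940 and 999 CPM, with a ratio of 0.941 (0.903 to 0.981). On the scale of mitochondrial reads the same ratio was 1.91, so its direction depends on the scale. What does not depend on the scale is the share of the gene's own reads at the end, which was 81.2% (Clopper-Pearson 95% interval 80.8 to 81.6) with CU5T45 and 94.0% (93.8 to 94.2) with oligo(dT)10-25.

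Among the 15 genes, 6 had at least 30 reads at their annotated end, and all 6 ends had a lower share of all reads with CU5T45. Set against mitochondrial reads, the ends of mt-Cytb, mt-Rnr1 and mt-Rnr2 stayed below 1, at 0.528, 0.451 and 0.432, while those of mt-Nd1, mt-Nd2 and mt-Nd4 lay above it, at 1.18, 1.54 and 1.34. The mt-Cytb end made up 27346 of 184933 mitochondrial reads with CU5T45 and 54305 of 194028 with oligo(dT)10-25. Its lower share raises the ratios of the other ends on this scale, so where they lie against 1 depends partly on it. The ratios without it were not tested. The odds of end against internal reads, CU5T45 over oligo(dT)10-25, were 0.277 (0.265 to 0.289) for mt-Cytb. They were below 1 for 5 of the 6 genes and above 1 for mt-Nd2, a complex I subunit, at 1.14 (1.06 to 1.23). The small rRNA mt-Rnr1 had the lowest odds ratio, 0.231 (0.222 to 0.240), and the large rRNA mt-Rnr2 had 0.515. The complex I mRNAs mt-Nd4 and mt-Nd1 had 0.756 and 0.798. The 95% interval of mt-Cytb overlapped none of the other 5, which was also true of mt-Rnr1, mt-Rnr2 and mt-Nd2. Only those of mt-Nd4 (0.699 to 0.817) and mt-Nd1 (0.768 to 0.828) overlapped each other. These intervals cover counting error only.

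**Figure D1:**
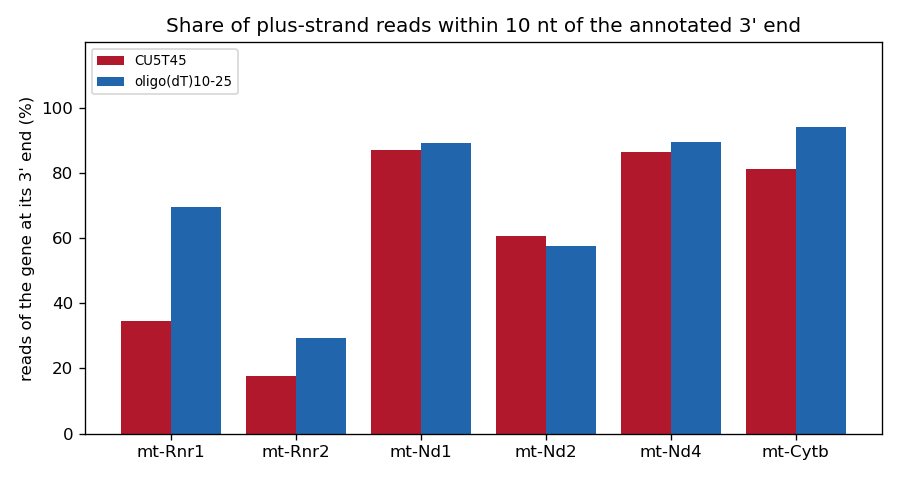
Share of each gene's plus-strand reads within 10 nt of its annotated 3′ end (y axis, percent) for the 6 genes with at least 30 end reads, ordered along the genome, with 1 bar for each library. The mt-Cytb bars stand at 81.2% and 94.0%, and mt-Nd2 is the gene whose CU5T45 bar is the taller.

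mt-Co1 (ENSMUSG00000064351.1) had internal reads, and its annotated end at 6872 was listed at 0 within 10 nt in both libraries. The 6 genes that follow it on the plus strand, mt-Co2, mt-Atp8, mt-Atp6, mt-Co3, mt-Nd3 and mt-Nd4l, held at most 13 reads each over both libraries, and 3 of them held none. They encode subunits of the respiratory chain and ATP synthase that cells in general use, and they had no CLIP alignment in either replicate. The files thus hold almost nothing over this whole block, and a count of 0 there gives no upper limit for the mature end of mt-Co1. The stretch from 6408 to 6872 held 151 and 78 reads, the last at 6455. The first 1080 bases held 3757 and 1677 reads, 558 and 482 CPM, with a ratio of 1.16 (1.09 to 1.23). On the scale of mitochondrial reads the ratio was 2.35. With each position counted as 1 whatever its reads, the ratio was 0.959 (0.797 to 1.15), on the other side of 1, with an interval that includes it.

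Internal reads of mt-Co1 thus stood slightly higher with CU5T45 than those of mt-Cytb, with an odds ratio of 1.23 (1.15 to 1.32). Per kb, mt-Cytb had 5537 and 3040 internal reads over its gene of 1144 nt, and mt-Co1 had 3479 and 1553 over its range of 1080 nt.

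Much of mt-Co1 also has exact copies in nuclear transcripts. Of the 40 nt windows that end within its range, from 5367 on, 418 of 1041 (40.2%) were identical to part of an annotated nuclear transcript, against 16 of 1117 (1.43%) in mt-Cytb. From 6408 to 6872 the count was 440 of 465 (94.6%), and the first of these windows ended at 6433. Of the 289 places of mt-Co1 with such a copy and not followed by A, 34 (11.8%) carried a read, and of the 448 without a copy, 260 (58.0%) did. The reads at places with a copy were 247 and 14, a ratio of 9.12 (5.33 to 16.9), and at places without a copy 3510 and 1663, a ratio of 1.09 (1.03 to 1.16). Of the reads at places with a copy, 121 and 0 lay in the stretch 6284 to 6293, which is described below and was chosen for its excess. Only annotated transcripts were searched, not the nuclear genome, and the part of the copies in these counts was not tested. The longest empty stretch of mt-Co1, 5662 to 5795, held the ends of a run of such windows, from 5680 to 5788.

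Along mt-Cytb, reads were spread over most of the gene. Of its 774 internal places not followed by A, 576 (74.4%) were used in at least 1 library, against 294 of 763 (38.5%) in mt-Co1. The most used internal position, 14796, closes the run of 4 A in the internal peak sequence above, with 834 and 427 reads and a ratio of 1.01 (0.897 to 1.14). It held 13.2% and 12.3% of internal reads. The next were 14779 with 152 and 123 reads (ratio 0.639, interval below 1), 14455 with 168 and 88, and 14783 with 167 and 61 (1.42, 1.05 to 1.93). Positions 14785 and 14786 had 119 and 65, and 117 and 61 reads. Of these 6 positions, 5 lay between 14779 and 14796, so the most used internal ends of mt-Cytb were crowded into a short stretch.

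mt-Co1 reads were more concentrated. Position 6238, the capital A of its peak sequence, held 969 and 465 reads, 25.8% and 27.7% of the range, with a ratio of 1.08 (0.963 to 1.21). Position 6058 followed with 220 and 74 reads (1.54, 1.18 to 2.03). Positions 6236, 6240, 6233 and 6239, all near 6238, had 114, 124, 90 and 89 CU5T45 reads against 54, 40, 51 and 42. The 10 most read positions held 51.0% and 52.4% of mt-Co1 reads, against 31.7% and 30.2% of internal mt-Cytb reads.

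**Figure D2:**
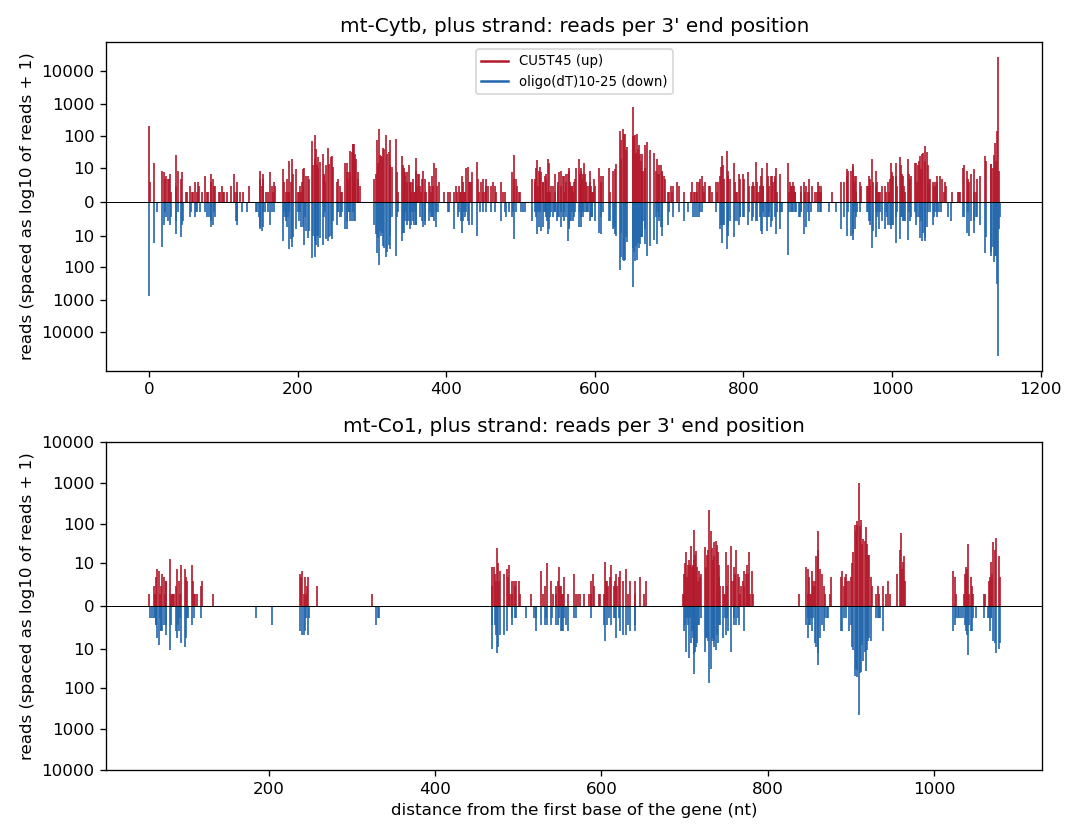
Reads at each plus-strand 3′ end position of mt-Cytb (top) and mt-Co1 (bottom), CU5T45 upward and oligo(dT)10-25 downward, with reads spaced as log10 of reads plus 1, against distance from the first base of the gene in nt. The end of mt-Cytb stands over all internal positions in both libraries, and mt-Co1 has its tallest line 910 nt from its first base.

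In bins of 50 nt with at least 30 reads, the libraries differed in both directions. Of the 23 bins of mt-Cytb, 2 had a 95% interval above 1, 8 below 1 and 13 including 1, and the median ratio was 0.815. Of the 14 bins of mt-Co1, 5 were above, 1 below and 8 included 1, with a median of 1.01. For the background, 27.7% of 17356 nuclear bins were above 1 and 22.9% below, with a median ratio of 1.09. Of 202 mitochondrial plus-strand bins, 8.91% were above and 55.9% below, with a median of 0.693. The share of mt-Co1 bins above 1 (35.7% of 14 bins) was near the nuclear background and above the mitochondrial one of 8.91%. That of mt-Cytb bins below 1 (34.8%) lay between the nuclear and the mitochondrial background.

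The bins with most mt-Cytb reads were 14795 to 14844 with 1773 and 892 reads, 14445 to 14494 with 871 and 454, and 14745 to 14794 with 801 and 451. Their intervals all included 1. The lowest ratio, 0.338 (0.231 to 0.490), was in bin 14995 to 15044 with 49 and 75 reads, and the highest, 4.69 (3.40 to 6.61), in bin 14395 to 14444 with 381 and 42. In mt-Co1 the most read bins were 6228 to 6277 with 1852 and 857 reads, ratio 1.12 (1.03 to 1.21), 6028 to 6077 with 802 and 337, ratio 1.23 (1.08 to 1.40), and 6178 to 6227 with 169 and 89. The lowest, 0.548 (0.401 to 0.751), was bin 5378 to 5427.

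The high mt-Cytb bin rested on a stretch of 15 bases, 14415 to 14429, of which 10 are T, shown in capitals above. It held 322 CU5T45 reads and 14 oligo(dT)10-25 reads, a ratio of 11.9 (6.98 to 22.0). Positions 14419, 14420 and 14421 had 57, 57 and 60 CU5T45 reads against 0, 1 and 3. No place of this stretch had a 40 nt nuclear copy. Without it, the internal ratio of mt-Cytb was 0.897.

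In mt-Co1 the matching stretch, 6284 to 6293, held 121 CU5T45 reads and no oligo(dT)10-25 read, at least 16.7-fold higher (lower 95% limit). Position 6288 alone had 58 and 6287 had 22. All 10 of its bases had a 40 nt nuclear copy, against 0 of 15 in the mt-Cytb stretch, and the part of the copies in this result was not tested. Both stretches were chosen after their values were seen, as the run of largest excess over 4-fold in the bin with the highest ratio.

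**Figure D3:**
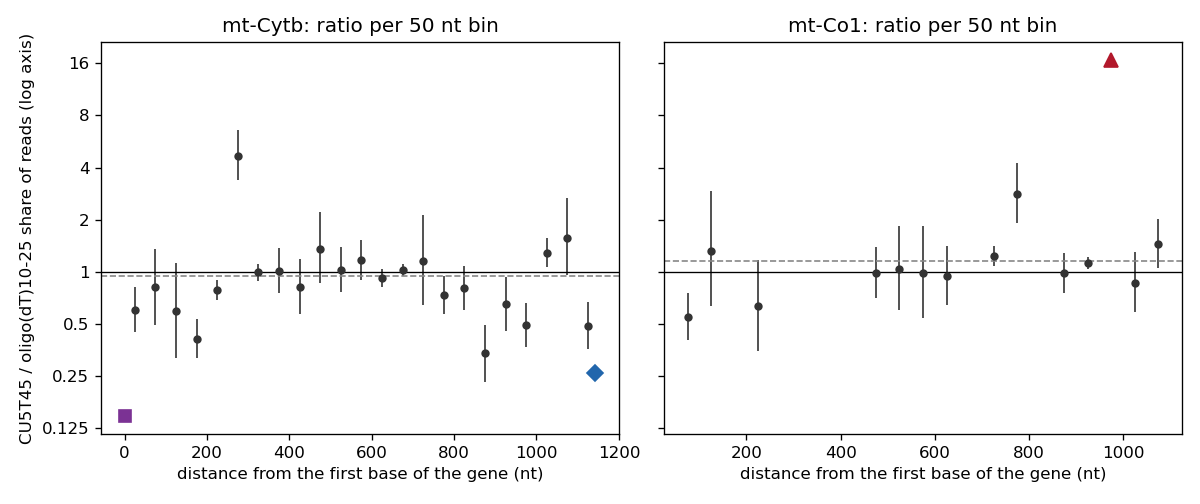
Ratio of read shares, CU5T45 over oligo(dT)10-25 (log axis), for 50 nt bins with at least 30 reads against distance from the first base of the gene in nt, with 95% intervals for counting error. The solid line is 1 and the dashed line the internal ratio of the gene, 0.941 and 1.16. The diamond is the mt-Cytb end (0.260), the square its first base (0.146), and the triangle the lower 95% limit of the mt-Co1 bin without oligo(dT)10-25 reads (16.7).

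The first base of mt-Cytb was kept apart from the internal ends, a choice made after its reads were seen. This A at 14145 held 217 and 769 reads, a ratio of 0.146 (0.125 to 0.170), lower than that of the mature end. Because the deposited positions lie behind any templated A, an RNA that ended just before the gene would be placed on it. The 10 nt before the gene held 1 and 0 reads. The annotated end of mt-Nd5, the plus-strand mRNA before it, held 4 and 2. With the first base included the internal ratio of mt-Cytb was 0.797, and the end share 80.7% and 92.7%.

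Because the deposited positions never lie before an A, every cut just before or inside an A run is placed at the last A of that run, which by itself puts many reads on A. Evenly spread cuts would give 54.9% on A in internal mt-Cytb and 51.9% in mt-Co1. Reads at positions on A made up 58.9% (57.6 to 60.1) of internal mt-Cytb reads with CU5T45 and 63.5% (61.8 to 65.1) with oligo(dT)10-25, a few percentage points above that value. In mt-Co1 they made up 52.9% (51.3 to 54.5) and 55.6% (53.2 to 58.0), and the CU5T45 interval includes the evenly spread value. Single positions on A weigh heavily in these shares. Position 14796 held 13.2% and 12.3% of internal mt-Cytb reads, and 6238 held 25.8% and 27.7% of mt-Co1 reads. The shares on A without these positions were not tested, so they do not describe either gene as a whole. The share of mt-Cytb reads at runs of 2 or 3 A was lower with CU5T45, with ratios of 0.658 (0.559 to 0.776) and 0.655 (0.569 to 0.754), whereas positions not on A had 1.06 (0.991 to 1.13) and those on a run of 4 or more 0.931 (0.833 to 1.04). In mt-Co1 the ratio at runs of 2 A was 0.888 (0.667 to 1.19). At runs of 3 A it was 1.86 (0.666 to 6.41), from 18 and 5 reads. The mt-Cytb runs of 4 or more A are 4 places with 893 and 496 reads, of which 14796 held 834 and 427. The mt-Cytb positions not on A include 14419, 14420 and 14421 of the stretch with high CU5T45 reads.

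An A-rich flank, 6 A in a row or 7 among 10 bases downstream, followed no internal read of either gene, but few places could have had one. It follows 0.176% of evenly spread cuts in mt-Cytb and 0.463% in mt-Co1. Counted from the start of the A run instead, it held for 0.584% of mt-Cytb reads with CU5T45 and 1.87% with oligo(dT)10-25, and for none in mt-Co1, against 1.76% and 1.85% of evenly spread cuts. AATAAA or ATTAAA, the hexamers of nuclear poly(A) signals, searched on the plus strand within 40 nt upstream, lay before 38.3% and 36.9% of internal mt-Cytb reads, against 10.1% of evenly spread cuts. In mt-Co1 they lay before 0.319% and 0.537%, against 7.22%. Only 79 of the 774 places of internal mt-Cytb not followed by A had such a hexamer, so a few crowded positions can carry this share. Position 14796 alone held 13.2% and 12.3% of internal reads. The share without the crowded positions was not tested, so it does not describe the gene as a whole. A match of letters is a description and not a site.

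CstF64 CLIP alignments lay on both genes, mostly on their plus strand. On mt-Cytb there were 187 distinct alignments in replicate 1 (exact Poisson 95% interval 161 to 216) and 237 in replicate 2 (208 to 269), or 162 and 205 per kb, against 16 and 22 on the minus strand. On mt-Co1 there were 297 (264 to 333) and 351 (315 to 390), or 275 and 325 per kb, against 3 and 3. In order of alignments per kb, mt-Co1 was the fourth of the 15 genes in both replicates, and mt-Cytb the sixth and the fifth, but 6 of the 15 had no alignment in either replicate, so the order is among 9. Without a control library, what unbound RNA would give is not known.

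The replicates shared many identical alignments, 167 in mt-Cytb (89.3% of replicate 1, 70.5% of replicate 2) and 241 in mt-Co1 (81.1% and 68.7%). Over 23 bins with at least 10 alignments, chi-square per degree of freedom between the replicates was 0.282, less than sampling noise gives, so they were counted as 1 sample and each value is given singly.

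In mt-Co1 the alignments were concentrated in bin 6028 to 6077 with 91 and 105, bin 6178 to 6227 with 58 and 62, and bin 5378 to 5427 with 43 and 50. These 3 bins held 64.6% and 61.8% of the alignments. In mt-Cytb the leading bins were 14895 to 14944 with 36 and 37, 14645 to 14694 with 31 and 34, and 14745 to 14794 with 26 and 37, together 49.7% and 45.6%. The bin with most 3'READS reads in mt-Cytb, 14795 to 14844, had 1 and 1, and that in mt-Co1, 6228 to 6277, had 11 and 14.

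Around the ends given here, more alignments lay on the upstream side than beyond. In the 40 nt up to 6058, shown above as the next position of mt-Co1, there were 83 and 95 alignment midpoints, against 8 and 11 in the 40 nt beyond it. At 6238 the counts were 64 and 69 against 3 and 4, and at 14796 they were 25 and 36 against 1 and 1. At 14455 they were 10 and 16 against 5 and 7. The mature end of mt-Cytb had 7 and 7 on its upstream side, none beyond it, and no alignment that spanned it. No other positions were counted for comparison. Position 14779 of mt-Cytb lies in the upstream window of 14796 and was not counted apart. The windows beyond 6058 and 6238 reach places with nuclear copies, the first of them at 6087 and 6271. Each such place is the last base of a copied 40 nt window. The copied sequence therefore starts before 6058 and 6238 and covers the 40 nt beyond each in full. The part of the copies in the lower counts beyond these positions was not tested. The CLIP and the 3'READS come from different cells, and coordinates of alignments are exact to within 1 nt.

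**Figure D4:**
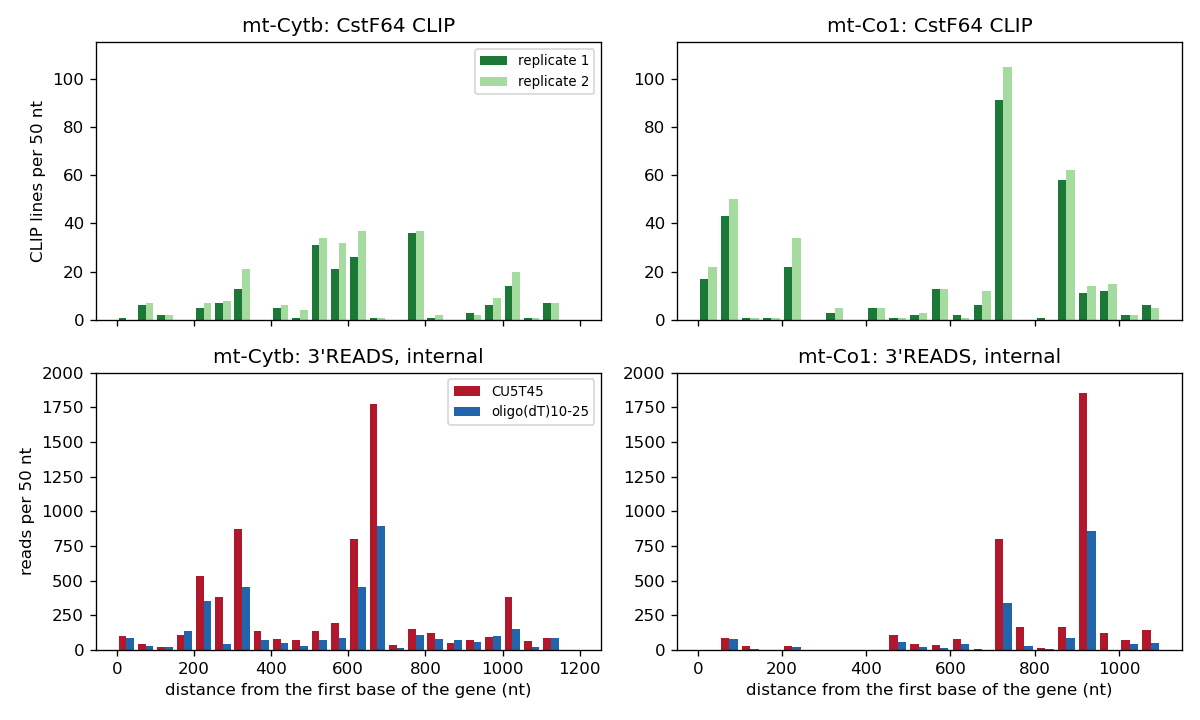
CstF64 CLIP alignments per 50 nt (top, replicates 1 and 2) and internal 3'READS reads per 50 nt (bottom, both oligos), against distance from the first base of mt-Cytb (left) and mt-Co1 (right) in nt. The tallest CLIP bin of mt-Co1 (91 and 105) is its bin with the second most reads, and in mt-Cytb the bin with most reads has 1 alignment in each replicate.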

How the data were processed

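The authors deposited 1 file per sample. Its column 5 holds whole-number read counts, with no normalization stated per the labels. In 3'READS files a line is 1 position and strand, and in CLIP files 1 distinct alignment. The submitters' processing notes list mm9, Bowtie and Novoalign, with no version and no role. Read filters and the numbering of positions (from 0 or from 1) are not given in the sources used here. Read from 0, as here, none of 4278 plus-strand mitochondrial positions is followed by A (1-based reading: the alternative), and all 6 ends with at least 30 reads peak at the annotated end or at the last of the A that follow it. A filter on untemplated A would act before deposition.

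Mitochondrial sequence was put together from GENCODE vM21 transcripts (GRCm38), and no genome was used. Chromosome M coordinates matched it at those 6 ends. Exact windows of 30 to 60 nt were searched in nuclear transcripts on both strands.

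Reads were summed within 10 nt of the last base of mt-Cytb, over the internal ranges and over 50 nt bins of at least 30 reads. Ratios of read shares have exact conditional binomial 95% intervals, shares Clopper-Pearson intervals. Evenly spread cuts are all bases of a range, each moved to the last A of a run that follows. Odds ratios are conditional estimates with exact intervals. No p-value was computed. CLIP alignments were counted by midpoint. Named positions are the end, the 6 internal positions with most reads in each gene and the position beside an annotated end. Named bins are the 3 with most reads, those with the highest and lowest ratio and, for CLIP, the 3 with most alignments in the lower replicate. Members and lists were chosen with earlier results of these data known. The interval was tested on simulated data. Alternatives changed the end window, the denominator, the counting of positions, bin width and read minimum, thinning, the A-rich rule and the CLIP counting. The tools were scipy 1.17.1, pandas 2.3.3 and numpy 2.4.6 under Python 3.11.15, with matplotlib 3.10.9 for figures.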

Additional observations from a re-analysis of the deposited data

Results flagged for a closer look

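Reads outside the ranges or strand described above were found in 3 places. The minus strand of the mt-Cytb range held 762 reads over both libraries, 394 with CU5T45 and 368 with oligo(dT)10-25, a ratio of 0.553 (0.479 to 0.640), and its most read position, 14264, had 19 and 17. The minus strand of the mt-Co1 range held 46 reads, 22 and 24. The plus strand of mt-Co1 beyond its first 1080 bases held 229 reads, of which 122 and 73 lay between 6408 and 6432, before the windows with nuclear copies begin. Each number is above the 3 reads that a count of 0 allows, and no control library exists.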

How the results depend on the processing

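Of 54 alternatives, 35 left the result within its interval or, for counts, within 1.5 times, 17 moved it and 2 reversed its direction. Set against mitochondrial reads, a total that includes the mt-Cytb end itself, the mt-Cytb end ratio was 0.528. The mt-Cytb internal ratio reversed to 1.91 on that scale, and the mt-Co1 ratio was 2.35. With each position counted as 1, the end, mt-Cytb internal and mt-Co1 ratios were 0.690, 0.896 and, reversed, 0.959. Chosen after seeing the data, including the first base gave 0.797 for internal mt-Cytb and end shares of 80.7% and 92.7%. Without the stretch of highest ratio internal mt-Cytb was 0.897, and without places that have a nuclear copy mt-Co1 was 1.09. Reading positions from 1 gave 58.9% and 63.5% of mt-Cytb and 52.9% and 55.6% of mt-Co1 reads before an A, by construction the share on A. An A-rich flank counted from the start of the A run gave 0.584% and 1.87% in mt-Cytb. Counting every CLIP read gave means of 252 and 395.5 for mt-Cytb and mt-Co1. Leaving out a CLIP replicate gave 187 to 237 for mt-Cytb and 297 to 351 for mt-Co1. The cause of the other moves was not tested. Bins with an interval excluding 1 numbered 16 of 37, and 11 to 24 under the alternatives. No paired analysis was possible because each oligo has 1 library and the CLIP replicates share no number with a group compared. Depth limits single positions: 1 read at a position is common, at 20.5% of internal mt-Cytb positions with CU5T45 and 28.0% with oligo(dT)10-25.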

Other observations

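CLIP alignments of both genes had a deposited start on A more often than the genes' composition gives. Their deposited start lay on A for 73.8% and 71.3% of mt-Cytb alignments in replicates 1 and 2, where A makes up 31.7% of the range, and for 61.3% and 61.3% of mt-Co1 alignments, where it makes up 29.4%. The numbering of these files is not settled, and starts are exact to within 1 nt.

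The ratio at mt-Co1 places with a nuclear copy was higher the longer the copy required. With windows of 30 nt the counts were 530 with CU5T45 and 126 with oligo(dT)10-25, a ratio of 2.17 (1.79 to 2.66). At 40 nt it was 9.12, at 50 nt the places held 181 and 3 reads, a ratio of 31.2 (10.5 to 153), and at 60 nt 37 and 0. In mt-Cytb, places with a copy at 30 nt held 171 and 87 reads, a ratio of 1.02 (0.780 to 1.33). At 40 nt only 2 of 10 such places carried a read, with 5 and 5 reads, a ratio of 0.517 (0.119 to 2.25). At 50 nt there were none, so a change with copy length could not be seen in mt-Cytb. The mt-Co1 sets are nested, so their ratios are not independent. The stretch 6284 to 6293, with 121 and 0 reads and chosen for its excess, lay wholly in the sets at 30, 40 and 50 nt. At 60 nt 3 of its 10 places remained, and only 6 places of that set carried a read. A trend with copy length apart from this stretch was not tested. Of the mt-Co1 reads at 40 nt, 125 CU5T45 reads and no oligo(dT)10-25 read lay in the windows ending between 6271 and 6316, and 107 and 11 in those between 6087 and 6163. The most read position in each gene has no such copy, and the share of reads at positions seen with both oligos was 93.6% and 97.4% in internal mt-Cytb, and 91.2% and 97.6% in mt-Co1.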
